A study of Homo sapiens with 8 samples.

Results

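The gefitinib-resistant cultures of 2 human lung adenocarcinoma cell lines, HCC827 and HCC4006, were set side by side. The comparison used 4 of the 8 libraries of the series, 2 per resistant culture, and the rows of the expression tables above 0 in all 4. Of 48405 rows, 16617 met that condition, and 16369 of them also passed a filter on low means and were tested. All values are polyadenylated RNA of whole cultures in FPKM (fragments scaled by transcript length and by mapped fragments), as deposited.

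Both lines carry activating mutations of EGFR, the epidermal growth factor receptor, and gefitinib blocks that receptor's kinase. The resistant groups, HCC827 gefitinib-resistant and HCC4006 gefitinib-resistant, grew in medium with 3 µM gefitinib, and the protocols speak of cell populations and name no clone. Each line also has a control group carried in DMSO, the solvent, with 2 libraries. The controls are labelled DMSO only, so effects of resistance and of the drug's presence cannot be told apart. The labels do not say whether both libraries of a group are separate cultures, and p-values then cover only the spread between these libraries, which may be technical. Each line has its own table, and the sources used here do not say whether the tables were normalized together. A difference between the lines and a difference between the tables therefore cannot be told apart, and levels set across them depend on each table's scale.

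Epithelial cells hold to each other through E-cadherin, tight junctions and desmosomes, and express the splicing factors, trafficking proteins and surface proteases of an epithelial surface. In the epithelial to mesenchymal transition the transcription factors ZEB1, ZEB2, SNAI2 and TWIST1 repress many of these genes, and vimentin, N-cadherin and matrix proteins come up. Lung cancer cells that escape EGFR inhibitors are known to do so by this transition, by use of other receptor kinases such as MET, AXL or FGFR1, or both. The title of the series names cellular reprogramming and a loop of the growth factor FGF2 with its receptor FGFR1.

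A row was called when its Benjamini-Hochberg adjusted p in limma was below 0.05. Differences are HCC827 minus HCC4006 in log2(rescaled FPKM + 0.5), so a positive value is higher in resistant HCC827 and 1 unit is a 2-fold difference. In all, 2663 of 16369 rows (16.3%) were called, 1403 higher in HCC827 (8.57%) and 1260 higher in HCC4006 (7.7%). The shares by direction are the background for the counts of list members given below. The smallest called difference was 0.97, and the median over all rows tested was −0.016. At an unadjusted p under 0.05 there were 5616 rows. At least 2-fold apart were 30.7% of rows, and in 64.0% the libraries of the lines did not overlap. These counts moved with the libraries: without resistant HCC4006 library A or B, 880 or 885 rows were called, and without resistant HCC827 library A or B, 8140 or 7251. The lone library is then assumed to vary like the pair of the other line.

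The 2 resistant HCC827 libraries differed more from each other than the 2 resistant HCC4006 libraries. The median absolute difference between A and B over the rows tested was 0.54 in HCC827 and 0.22 in HCC4006. Cell cycle genes moved with that gap, since all 28 tested were lower in library A than in B of resistant HCC827, by a median of 1.47 log2 units. The top 10 rows held 5.3% to 10.29% of all FPKM in a library, and the median row above 0 lay at 55.55 to 56.17 FPKM. Depth is unknown, so no counting interval can be given. In RNA of whole cultures, fewer cells of a type and less RNA per cell cannot be told apart. Apart from 22 genes always named, those described as not called, overlapping or listed at 0, and GAPDH, MKI67, EGR1 and FOS, were chosen after their values were seen. Markers of other cell types were sparse. Of 14 immune markers 3 or 4 were above 0 in a library, with a summed level of 367.0 to 447.8 FPKM carried mostly by CD68, a lysosomal protein, and PTPRC, CD3E and LYZ were listed at 0. Of 8 endothelial markers found, 1 to 3 were above 0 and summed to 9.40 to 11.4 FPKM in HCC827 and 43.9 to 68.2 in HCC4006, with CDH5 and CLDN5 at 0. Of 8 fibroblast markers in rows of their own, 1 was above 0 in HCC827 (13.4 and 18.1 FPKM) and 2 in HCC4006 (95.8 and 117.9 summed), with COL3A1, DCN, LUM, FAP and THY1 at 0. The fibroblast marker COL1A1 (−2.33, limma adjusted p = 0.0102) and the endothelial marker ESAM (−2.30, limma adjusted p = 0.0168) were called higher in HCC4006. COL1A1 was not called without resistant HCC4006 library A or B, nor ESAM without library B. With 1 of the 4 libraries left out the differences were −2.54 to −2.11 for COL1A1 and −2.62 to −1.98 for ESAM. PDGFRB, KDR and the immune marker CD14 were listed at 0 in both resistant HCC827 libraries and above 0 in both of HCC4006. The immune marker CD79A showed the reverse.

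Epithelial genes were higher in resistant HCC827 than in resistant HCC4006. E-cadherin (CDH1, chr16:68771128-68869444 in hg19, counted from 1) was read at 1804 and 1132 FPKM in resistant HCC827 and at 3.03 and 3.295 in resistant HCC4006. These levels sat at percentiles 97.7 and 94.7 of the rows above 0 in HCC827 and at percentiles 13.5 and 14.0 in HCC4006. The difference was 8.64 ± 0.34 (SE, n = 2 libraries per group, limma adjusted p = 0.000514). In DMSO the same gene stood at 1325 and 1081 FPKM in HCC827 and 1518 and 945.1 in HCC4006, and these ranges overlap.

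Of 25 listed cadherin, tight junction and surface adhesion genes, 17 were tested, 3 shared a row with another gene and 5 had a 0 among the 4 libraries. Called were 10 higher in HCC827 and 1 higher in HCC4006, beside 8.57% and 7.7% of all rows, with a list median of 1.59. P-cadherin (CDH3) had 539.1 and 706.5 FPKM in HCC827 against 8.65 and 8.77 (6.10 ± 0.30, limma adjusted p = 0.000779). The adhesion molecule EPCAM had 2744 and 4312 FPKM against 182.9 and 113.4, a difference of 4.61. The polarity protein CRB3, which organizes the apical surface, had 134.8 and 172.8 FPKM against 6.88 and 5.69. For all of these the lowest HCC827 library lay above the highest HCC4006 library. The libraries of the lines did not overlap, in either direction, in 64.0% of all rows tested. Beta-catenin (CTNNB1), which links cadherins to the cytoskeleton, was read at 2005 and 1809 FPKM against 1349 and 1265 and was not called (0.58, adjusted p = 0.205). Without resistant HCC4006 library A or B, 8 or 7 members were called with HCC827 higher and 0 with HCC4006 higher. With either resistant HCC827 library left out, 3 members were called with HCC4006 higher.

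Some junction genes were listed at 0 in one line only. Claudin 4 (CLDN4) and occludin (OCLN) were listed at 0 in both resistant HCC827 libraries and at 221.9 and 283.8, and 21.3 and 25.1 FPKM in resistant HCC4006. MARVELD3 and NECTIN4 (PVRL4) showed the reverse pattern. No fold is given for such rows because a 0 in these tables can be a failed estimate: the tubulin gene TUBB, which every growing cell uses, was listed at 0 in both resistant HCC827 libraries and at 13070 and 16010 FPKM in resistant HCC4006, and the mitotic kinase PLK1 at 0 in all 4.

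Desmosomes, the spot junctions that anchor keratin filaments, were called in the same direction as the cadherins. Of 9 tested genes 5 were called, all higher in HCC827, with a list median of 1.97, and 3 more (DSG3, PKP1, EVPL) were listed at 0 in all 4 libraries. With 1 of the 4 libraries left out, the list median was 1.87 to 2.07. Desmoplakin (DSP) had 71.8 and 71.9 FPKM against 3.81 and 4.62, a difference of 3.98. Plakoglobin (JUP) had 920.6 and 563.3 FPKM against 76.3 and 77.9. The desmosomal cadherin DSG2 was read at 703.8 and 470.1 against 368.7 and 365.7 and was not called (adjusted p = 0.168). Keratins were mixed. KRT19 had 4428 and 8672 FPKM against 486.2 and 515.1 (3.66, adjusted p = 0.00392), and KRT15 212.6 and 270.7 against 1.66 and 4.20. KRT8, in contrast, had 1175 and 2743 against 1100 and 975.3, with a difference of 0.83 ± 0.45 that was not called (adjusted p = 0.242). In resistant HCC4006, KRT8 sat at percentiles 95.7 and 95.2 of the rows above 0, and KRT19 at 89.0 and 89.7. The median of the 3 tested keratins was 3.18 to 4.16 with 1 of the 4 libraries left out.

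Epithelial transcription and splicing regulators, trafficking proteins and surface proteases had a list median of 2.81, the highest among lists with at least 5 tested genes. Of 26 genes 14 were tested, and 13 of these were called, all higher in HCC827. RAB25, a small GTPase of apical recycling, had 654.1 and 933.6 FPKM against 4.28 and 4.45 (7.36 ± 0.33, limma adjusted p = 0.000572). AP1M2, the epithelial subunit of a clathrin adaptor, had 499.9 and 504.9 FPKM against 3.35 and 3.11. The surface proteases ST14 (601.2 and 537.1 against 14.96 and 10.49 FPKM) and PRSS8 (362.5 and 254.2 against 7.51 and 7.48 FPKM) act in one proteolytic cascade, and differed by 5.48 and 5.28. The splicing factor ESRP1, which sets epithelial isoforms, was read at 1052 and 614.0 FPKM in HCC827 and at 1.45 and 0 in HCC4006. GRHL2, a transcription factor that maintains epithelial genes, had 175.6 and 89.1 FPKM in HCC827 and was listed at 0 in both HCC4006 libraries, as were OVOL1 and TMPRSS4. TRIM29 showed the reverse, at 0 in both resistant HCC827 libraries and at 1.86 and 0.715 FPKM in resistant HCC4006. The pioneer factor FOXA1 was the tested member that was not called, at 192.9 and 196.9 against 92.9 and 124.2 FPKM (0.89, adjusted p = 0.0808). Without resistant HCC4006 library A or B, 8 or 9 of the 14 were called, and none of the tested members was called with HCC4006 higher when any of the 4 libraries was left out.

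**Figure D1:**
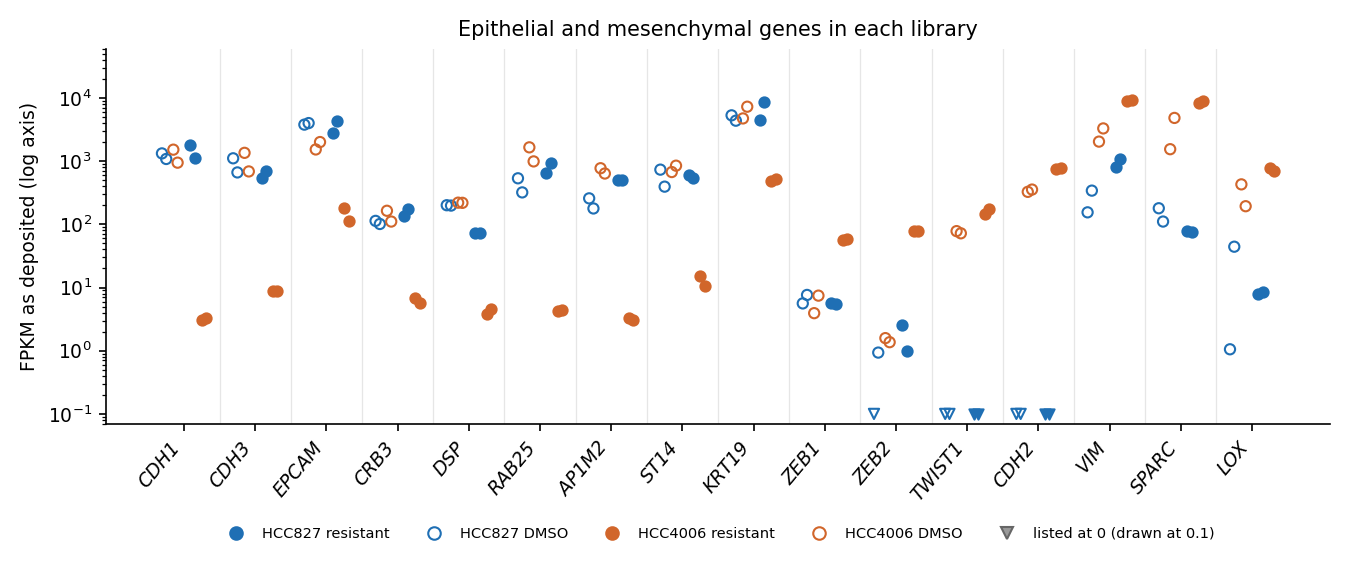
FPKM of epithelial and mesenchymal genes in each of the 8 libraries on a log axis, with filled points for resistant and open points for DMSO cultures, and triangles drawn at 0.1 for values listed at 0. CDH1 lies at 1132 and 1804 FPKM in the resistant HCC827 libraries and at 3.03 and 3.295 in the resistant HCC4006 libraries, while CDH2 and TWIST1 are listed at 0 in every HCC827 library.

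ZEB1, ZEB2 and SNAI2 bind the E-box letters CACCTG, or CAGGTG on the other strand, in promoters of epithelial genes, and ZEB1 and ZEB2 differed between the cultures, as given below. The letters were therefore looked for in the 250 bases before the start site, on both strands, of the 28 genes called with HCC827 higher in the 3 epithelial lists. These 2 words cannot overlap each other. Of these genes 19 had RefSeq windows (GRCh38.p14), 29 windows in all because some genes have several start sites. CDH1, CDH3, EPCAM, ST14 and PRSS8 were among the genes without a window. At least 1 match was in 12 of the 29 windows (41.4%), against 17.5% of all 35116 RefSeq windows of that length, and 2 or more were in 6 (20.7%), against 2.53%. Among 9 windows of mesenchymal and matrix genes called with HCC4006 higher, 3 (33.3%) held 1 match and 0 held 2. A match is a description of the letters only. The windows of the 3 genes with the largest differences among those holding 2 or more are shown 5′ to 3′ on the gene's strand, with the matches in capitals. AP1M2 (chr19:10587313-10587562, minus strand) has 3, CRB3 (chr19:6464021-6464270, plus strand) has 5 and DSP (chr6:7541421-7541670, plus strand) has 2.
AP1M2: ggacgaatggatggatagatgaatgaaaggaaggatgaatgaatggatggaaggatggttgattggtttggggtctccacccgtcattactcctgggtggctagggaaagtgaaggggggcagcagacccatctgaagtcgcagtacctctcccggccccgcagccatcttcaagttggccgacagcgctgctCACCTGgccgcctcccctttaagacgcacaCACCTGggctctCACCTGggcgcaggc
CRB3: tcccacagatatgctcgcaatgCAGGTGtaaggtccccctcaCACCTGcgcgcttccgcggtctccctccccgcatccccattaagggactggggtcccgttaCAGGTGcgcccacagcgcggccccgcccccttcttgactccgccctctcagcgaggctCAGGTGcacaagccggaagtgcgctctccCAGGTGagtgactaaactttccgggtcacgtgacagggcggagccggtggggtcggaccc
DSP: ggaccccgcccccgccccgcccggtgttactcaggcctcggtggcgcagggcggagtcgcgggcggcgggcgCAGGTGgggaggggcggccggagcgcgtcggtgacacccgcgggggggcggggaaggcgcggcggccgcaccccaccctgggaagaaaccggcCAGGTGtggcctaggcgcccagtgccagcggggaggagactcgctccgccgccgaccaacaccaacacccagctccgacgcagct

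Mesenchymal and matrix genes stood the other way. Of 28 listed genes 11 were tested, of which 9 were called higher in HCC4006 and 1, the ectonucleotidase NT5E, higher in HCC827 (1.20, adjusted p = 0.0455). The list median was −4.25. Vimentin (VIM), the intermediate filament of mesenchymal cells, had 800.4 and 1071 FPKM in resistant HCC827 against 9074 and 9193 in resistant HCC4006 (−3.27 ± 0.33, limma adjusted p = 0.00315). In HCC827 vimentin lay at percentiles 93.9 and 94.4 of the rows above 0. SPARC, a collagen-binding matrix protein, had 77.3 and 74.5 FPKM against 8224 and 8976, a difference of −6.78 ± 0.26. The collagen crosslinking enzyme LOX had 7.77 and 8.58 FPKM against 775.4 and 700.8. The secreted glycoprotein FSTL1 had 71.8 and 9.27 against 2152 and 2208 FPKM, and COL6A1 11.8 and 7.17 against 184.3 and 303.5.

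A further 9 members were listed at 0 in both resistant HCC827 libraries and above 0 in both resistant HCC4006 libraries. Among them were N-cadherin (CDH2, 761.6 and 771.1 FPKM), COL5A1 (1437 and 1970) and the matrix protease MMP2 (423.6 and 480.2). None of the 28 showed the reverse pattern. Of all 48405 rows, 1474 were at 0 in resistant HCC827 in this way and 1027 showed the reverse. A 0 in these rows can be a failed estimate. Without resistant HCC4006 library A or B, 7 members were called with HCC4006 higher and NT5E was not called (highest adjusted p = 0.436). Other genes of matrix and cell spreading that were called higher in HCC4006 were the protease ADAMTS1 (3.20 and 5.00 against 674.4 and 490.2 FPKM, −6.96) and thrombospondin THBS1 (69.8 and 83.4 against 3379 and 2899 FPKM, −5.31).

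Contractile genes are often raised with mesenchymal traits. Of 12 tested, 3 were called higher in HCC4006 (TPM1, CNN3, TPM2) and 1 higher in HCC827 (ACTA2, 8.88 and 13.0 against 2.72 and 3.31 FPKM, 1.71), beside 7.7% and 8.57% of all rows. The counts were 6 and 3 without resistant HCC827 library A, or 7 and 2 without B. None of ACTA2, CNN3 and TPM2 was called without either resistant HCC4006 library (highest adjusted p of 0.305, 0.0956 and 0.487), and TPM1 was not called without library A (0.0593). The integrin ITGB6, which pairs into an epithelial receptor that activates TGF-beta, had 380.9 and 219.1 against 1.52 and 1.47 FPKM (7.21). Laminin chains LAMB2 and LAMC1 were called higher in HCC4006 (−2.16 and −1.63). LAMC1 was not called without either resistant HCC4006 library (highest adjusted p = 0.242), nor LAMB2 without library B (0.0783). Of 15 integrins and laminins tested 1 was called higher in HCC827 and 2 higher in HCC4006, beside 8.57% and 7.7% of all rows. The list median was 0.066, and −0.105 to 0.47 with 1 of the 4 libraries left out.

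Transcription factors of the transition separated the cultures by member. ZEB1, which represses CDH1, was read at 5.73 and 5.47 FPKM in resistant HCC827 against 56.3 and 58.3 in resistant HCC4006 (−3.21 ± 0.34, limma adjusted p = 0.00377). ZEB2 had 2.60 and 1.004 against 79.4 and 78.0 FPKM (−5.16), and TCF4 1.83 and 0.912 against 25.73 and 25.03 (−3.80). TWIST1 was listed at 0 in both HCC827 libraries and at 148.0 and 175.8 FPKM in HCC4006. SNAI2 had 49.0 and 29.7 against 75.7 and 58.1 FPKM and was not called (−0.75 ± 0.38, adjusted p = 0.211), and SNAI1 values overlapped (2.49 and 10.51 against 5.94 and 5.03). The 3 called members, of 6 tested, stayed called without each of the 4 libraries in turn. In DMSO, ZEB1 stood at 5.60 and 7.63 FPKM in HCC827 and 3.93 and 7.44 in HCC4006, which overlap, while TWIST1 was already at 78.01 and 72.04 in HCC4006.

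Receptor kinases and their ligands divided the cultures into different sets. The EGFR values of resistant HCC827 lay on both sides of those of resistant HCC4006: 1639 and 423.9 FPKM in resistant HCC827 against 770.5 and 752.2 (0.17 ± 0.61, adjusted p = 0.871). The sign turned without HCC827 library A, where the difference was −0.80, and without library B it was 1.15. In DMSO, EGFR had been 5462 and 5246 FPKM in HCC827 against 1079 and 662.1 (2.68 ± 0.38, limma adjusted p = 0.0324). MET, the receptor for hepatocyte growth factor (chr7:116312248-116438440 in hg19), had 19880 and 6628 FPKM in resistant HCC827 against 1435 and 1521 (2.99 ± 0.55, adjusted p = 0.0191), and was not called without resistant HCC4006 library A (adjusted p = 0.0582). The FPKM level of MET was 12.1 and 15.6 times that of EGFR in the resistant HCC827 libraries and 1.86 and 2.02 times in resistant HCC4006, and stood at 0.47 and 0.456 of EGFR in DMSO HCC827. Its ligand HGF was listed at 0 in all 4.

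The EGFR partners were far lower in resistant HCC4006. ERBB2 had 561.6 and 426.4 FPKM against 56.2 and 57.2 (3.13, adjusted p = 0.00241). ERBB3, the kinase-impaired partner that couples to PI3 kinase, had 207.0 and 220.3 against 6.90 and 13.6 FPKM (4.42 ± 0.40, adjusted p = 0.00241). Of 12 tested genes of the EGFR family and its ligands, 6 were called higher in HCC827 and 1 higher in HCC4006, and the list median was 1.81. That median was 1.78 to 2.15 with 1 of the 4 libraries left out. Among the ligands, epiregulin (EREG) had 1451 and 1401 FPKM against 2.41 and 2.16 (9.03 ± 0.29, adjusted p = 0.000514). Amphiregulin (AREG) had 680.8 and 2243 against 11.96 and 12.24 FPKM, and betacellulin (BTC) 111.5 and 138.9 against 7.53 and 7.64. The ligand HBEGF ran the other way, at 4.52 and 5.62 against 36.0 and 21.6 FPKM (−2.32), and was not called without resistant HCC4006 library A (adjusted p = 0.189).

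FGF2 and FGFR1 were both higher in resistant HCC4006. FGFR1 had 12.2 and 8.61 FPKM in resistant HCC827 against 344.8 and 428.2 in resistant HCC4006 (−5.13 ± 0.33, limma adjusted p = 0.00118). FGF2 had 56.6 and 26.0 FPKM against 274.6 and 200.2 (−2.56 ± 0.44, adjusted p = 0.0155) and was not called without HCC4006 library A (adjusted p = 0.0537). The FGF2 row also carries the name AC021205.1 and FGF2 overlaps NUDT6 on the other strand, so its reads are uncertain in libraries that do not mark strand. In DMSO the same order was present, FGF2 at 4.83 and 22.0 against 92.4 and 102.6 FPKM and FGFR1 at 4.44 and 2.65 against 21.1 and 68.1, neither called there (adjusted p = 0.0808 and 0.0649). FGFR4 was the more abundant receptor of resistant HCC827, where it was 6.75 and 19.0 times FGFR1, while FGFR1 was 9.08 and 10.0 times FGFR4 in resistant HCC4006. FGFR4 was called higher in HCC827 (82.3 and 163.8 against 37.98 and 42.69 FPKM, 1.55, adjusted p = 0.0490), but not without either resistant HCC4006 library (highest adjusted p = 0.247). FGF13, an intracellular member of the family, had 182.1 and 131.1 FPKM against 7.32 and 7.88 (4.29), and the decoy-like receptor FGFRL1 110.1 and 100.8 against 354.9 and 371.6 (−1.75), not called without either resistant HCC4006 library (highest adjusted p = 0.109).

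A list of other receptor kinases and their ligands, which includes MET, had 19 tested members and a median of −0.60. Called were 2 higher in HCC827 and 5 higher in HCC4006, beside 8.57% and 7.7% of all rows. Without resistant HCC827 library A, 5 were called higher in HCC827 and 11 higher in HCC4006, without library B 5 and 7, and without resistant HCC4006 library A or B 0 and 5, or 1 and 4. AXL, a receptor linked to escape from EGFR inhibitors, had 13.9 and 8.34 FPKM against 2483 and 2844 (−7.84 ± 0.33, adjusted p = 0.000514). Its ligand GAS6 was listed at 0 in resistant HCC827 and at 307.9 and 381.2 FPKM in resistant HCC4006. In DMSO AXL already differed by −6.82 (adjusted p = 0.00998). EPHB2 (254.9 and 92.4 against 1014 and 890.3 FPKM, −2.59), EPHA4 (4.71 and 4.43 against 69.9 and 54.2 FPKM, −3.58) and the ligand PDGFB (2.78 and 1.52 against 51.6 and 63.1 FPKM, −4.45) were also called higher in HCC4006. KIT showed the opposite, 382.3 and 243.2 FPKM in resistant HCC827 and listed at 0 in resistant HCC4006. MST1R was called higher in HCC827 (1.95), but not without either resistant HCC4006 library (highest adjusted p = 0.0986), and IGF1R was not called (−1.13, adjusted p = 0.157).

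**Figure D2:**
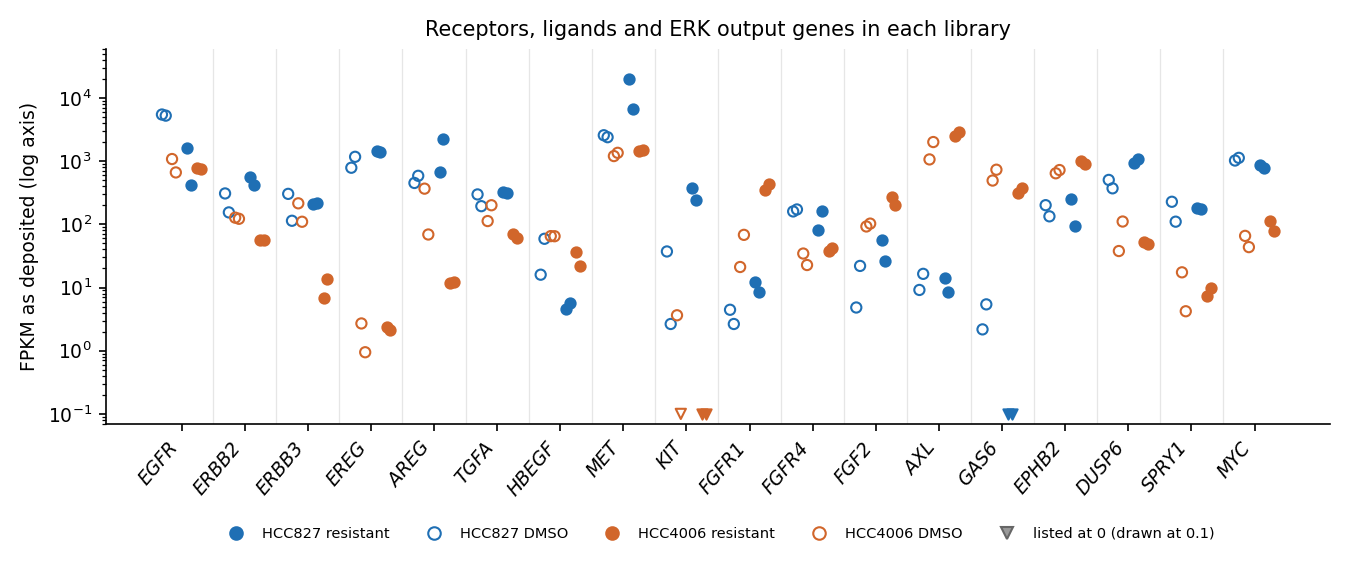
FPKM of receptors, ligands and ERK output genes in each of the 8 libraries on a log axis, filled for resistant and open for DMSO, triangles at 0.1 for values listed at 0. EGFR overlaps between the resistant cultures (423.9 and 1639 against 752.2 and 770.5), whereas AXL and FGFR1 are higher in every resistant HCC4006 library and EREG, ERBB3 and DUSP6 in every resistant HCC827 library.

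Of 16 tested genes switched on by the ERK kinases, which carry the receptor signal, 5 were called higher in HCC827 and 0 in HCC4006. Of all rows 8.57% and 7.7% were, and the list median was 0.20. That median was 0.12 to 0.56 with 1 of the 4 libraries left out. DUSP6, a phosphatase that dampens ERK, had 925.3 and 1089 FPKM against 52.7 and 48.0 (4.34 ± 0.27, adjusted p = 0.00111). SPRY1, a feedback inhibitor, had 179.2 and 173.1 against 7.26 and 9.73 FPKM, and DUSP5 334.3 and 497.7 against 48.7 and 32.1. MYC, which drives growth, had 868.0 and 769.1 against 111.5 and 78.9 FPKM (3.15). Other outputs such as SPRY2 (79.7 and 115.3 against 78.1 and 95.3 FPKM) and cyclin D1 (CCND1, 1486 and 991.2 against 1190 and 1219 FPKM) overlapped between the cultures. EGR1 and FOS, early genes that respond within minutes, were 61.5 and 10.6 FPKM in HCC827 library A and 653.8 and 256.5 in library B.

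Inflammatory genes were mostly higher in resistant HCC827, and in DMSO the list median was also positive (2.07 over 15 tested members). Of 18 tested cytokines and NF-kB targets, 10 were called higher in HCC827 and 2 higher in HCC4006 (median 1.64). Without resistant HCC827 library A or B, 7 or 6 were called higher in HCC4006, and without either resistant HCC4006 library 0 were. The chemokine CCL20 had 1286 and 1200 FPKM against 6.03 and 6.05 (7.60 ± 0.28, limma adjusted p = 0.000514). CXCL5, which attracts neutrophils, had 3313 and 2595 against 54.5 and 49.1 FPKM, and the cytokine IL1A 520.3 and 272.1 against 6.59 and 7.02. PTGS2, the inducible cyclooxygenase, had 611.3 and 220.8 against 47.7 and 18.5 FPKM (3.64, adjusted p = 0.0159). CCL2, which attracts monocytes, was the reverse, listed at 0 in resistant HCC827 and at 2645 and 2783 FPKM in resistant HCC4006. RELB and IL11 were called higher in HCC4006 (−2.07 and −1.94), but neither without either resistant HCC4006 library (highest adjusted p of 0.0925 and 0.173).

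In DMSO the median of the interferon-stimulated genes was 1.505 over 20 tested members. Of 22 tested in the resistant cultures 9 were called, all higher in HCC827, with a median of 1.25. OAS1 had 78.5 and 154.2 FPKM against 2.44 and 1.54 (5.53 ± 0.47, adjusted p = 0.00215), IFI44L 526.6 and 290.3 against 4.50 and 14.3, and BST2, a membrane tether of viruses, 1774 and 2763 against 191.0 and 202.7. The values of IFIT2 overlapped, at 43.6 and 30.4 against 40.5 and 42.9 FPKM. The median of the interferon-stimulated genes was 1.17 to 1.69 with 1 of the 4 libraries left out. Among MHC class I genes, values overlapped for HLA-B and not for B2M, with HLA-B at 4108 and 5668 against 3715 and 5118 FPKM and B2M at 12150 and 14600 against 17060 and 15810. HLA genes are near-identical copies, so reads may be split among them. Of 13 tested in that list, HLA-F was called higher in HCC827 and TAPBP higher in HCC4006, neither without either resistant HCC4006 library (highest adjusted p of 0.234 and 0.0856). The median of the MHC class I list was 0.0083, and −0.086 to 0.42 with 1 of the 4 libraries left out.

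Airway secretory and lung lineage genes were split by culture. Of 12 tested, 6 were called higher in HCC827 and 2 higher in HCC4006 (median 1.89), and 11 more members were listed at 0 in both resistant HCC4006 libraries and above 0 in both of HCC827. MUC20, which shares its row with other genes, showed the reverse, at 0 in both resistant HCC827 libraries and at 119.5 and 126.7 FPKM in resistant HCC4006. Of all 48405 rows, 1027 had the pattern of the 11 members and 1474 the reverse. AGR2, a disulfide isomerase of mucus-secreting cells, had 1810 and 2084 FPKM against 10.7 and 2.10 (8.53 ± 0.66, limma adjusted p = 0.00162). The antimicrobial protein LCN2 had 76890 and 32690 FPKM against 543.5 and 522.4, and the secreted protein WFDC2 851.3 and 1267 against 7.89 and 5.22. The transcription factor SOX2 had 65.3 and 44.9 against 1.67 and 1.33 FPKM (4.81). The alveolar protease NAPSA (911.3 and 2656 FPKM), the mucin MUC5B (217.4 and 325.9) and the immunoglobulin transporter PIGR (705.8 and 227.7) were among those listed at 0 in resistant HCC4006. NKX2-1, the lung lineage factor, shares its row with SFTA3, and that row stood at 351.9 and 632.0 against 30.3 and 21.9 FPKM. SOX9 and GATA6 were called higher in HCC4006 (−2.16 and −1.50), neither without either resistant HCC4006 library (highest adjusted p of 0.129 and 0.390).

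A list of targets of YAP and TAZ, coactivators that respond to cell shape, also held YAP1 and TEAD1 themselves. Of 12 tested, 4 were called higher in HCC4006 and 0 higher in HCC827 (median −0.56), beside 7.7% and 8.57% of all rows. Without resistant HCC827 library A, 7 were called higher in HCC4006, and without resistant HCC4006 library A, 2. ANKRD1 had 2.00 and 2.59 FPKM against 159.2 and 55.3 (−5.05), and CRIM1 249.0 and 98.9 against 1232 and 1212 (−2.92). CTGF (CCN2) and TEAD1 were called too, but not without resistant HCC4006 library A (adjusted p = 0.156 and 0.0515), and YAP1 was read at 373.0 and 228.3 against 451.9 and 472.1 FPKM without a call. In the TGF-beta and BMP pathway 3 of 23 tested were called higher in HCC4006 and 0 higher in HCC827 (median −0.79). These counts stand beside 7.7% and 8.57% of all rows. Without resistant HCC827 library A the counts were 12 and 3, without library B 7 and 3, and without resistant HCC4006 library A or B 1 and 0, or 1 and 1. TGFB1, the ligand, had 237.9 and 264.4 against 752.7 and 829.5 FPKM (−1.62, adjusted p = 0.0130) and was not called without either resistant HCC4006 library (highest adjusted p = 0.150), nor was BMP4 (0.196). The BMP antagonist GREM1 was at 1.17 and 0 FPKM in resistant HCC827 and 4565 and 3180 in resistant HCC4006.

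Cell cycle genes changed direction with the HCC827 library used. Of 28 tested, CDT1 was called higher in HCC827 and KIF11 higher in HCC4006, neither without either resistant HCC4006 library (highest adjusted p of 0.334 and 0.348), and the median was −0.24. The proliferation marker MKI67 was 92.5 and 213.9 FPKM in resistant HCC827 against 337.4 and 564.9. Without HCC827 library A the list's median was 0.43 with 10 called higher in HCC827 and 3 higher in HCC4006, and without library B it was −1.16 with 1 and 19. Cholesterol synthesis genes had 0 of 19 called in either direction (limma, adjusted p below 0.05), with values in HCC827 library A below B in 15 of 19. Without HCC827 library A, 11 of these were called higher in HCC827 and 3 higher in HCC4006, and without library B, 4 and 5.

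Genes of cell cycle entry were called in both directions. Of 9 tested, 3 were higher in HCC827 and 2 higher in HCC4006, beside 8.57% and 7.7% of all rows. CDK4, the kinase that phosphorylates RB1, had 10270 and 17830 FPKM in resistant HCC827 against 812.7 and 797.7 (4.11 ± 0.39, limma adjusted p = 0.00260), and in DMSO 12610 and 15130 against 1081 and 1053 (3.71). CDKN2A and CDKN2B, inhibitors of that kinase at one locus, were 1389 and 2652, and 85.0 and 87.7 FPKM in resistant HCC827 and listed at 0 in both resistant HCC4006 libraries. The inhibitor CDKN1A (p21) had 39.3 and 26.4 against 173.3 and 225.5 FPKM (−2.56), and CDKN2C 10.9 and 41.4 against 171.0 and 181.8 (−2.98). CDKN1B and CDKN1C were called higher in HCC827 (1.35 and 2.07), neither without either resistant HCC4006 library (highest adjusted p of 0.262 and 0.133). The median of this list was −0.42, and −0.61 to −0.24 with 1 of the 4 libraries left out.

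Among 16 tested BCL2 family and inhibitor of apoptosis genes, 3 were called higher in HCC827 and 2 higher in HCC4006. Of all rows 8.57% and 7.7% were. The list median was 0.38, and 0.25 to 0.43 with 1 of the 4 libraries left out. The survival protein BCL2A1 had 240.2 and 261.8 FPKM against 5.12 and 5.00 (5.53 ± 0.32, adjusted p = 0.000903), and the killer protein BIK 245.7 and 430.1 against 5.51 and 9.18 (5.45). BID (31.3 and 74.1 against 372.8 and 357.1 FPKM, −2.87) and BAK1 (50.1 and 41.3 against 249.7 and 250.2 FPKM, −2.41), which take part in opening the mitochondrial membrane, were higher in HCC4006. The survival protein MCL1 was not called and its values overlapped, at 970.7 and 1086 against 1106 and 1024 FPKM. BCL2L11 (BIM), which mediates death on EGFR inhibition, was 145.0 and 95.6 against 86.9 and 77.6 FPKM without a call. Drug transporters differed by member: the efflux pump ABCG2 had 2.65 and 4.30 FPKM against 75.2 and 64.9 (−4.14), ABCC3 2499 and 1352 against 297.8 and 279.7 (2.70), and ABCB1 values overlapped at 1.29 and 2.91 against 1.27 and 1.08. The glutathione transferase GSTP1 had 3716 and 8410 against 803.5 and 688.6 FPKM (2.94). Of 23 NRF2 and xenobiotic genes tested, 5 were called higher in HCC827 and 2 higher in HCC4006, beside 8.57% and 7.7% of all rows. The list median was 0.20, and −0.14 to 0.34 with 1 of the 4 libraries left out. HMOX1 was called, but not without either resistant HCC4006 library (highest adjusted p = 0.447).

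Of 24 glycolysis and hypoxia genes 3 were called in each direction, beside 8.57% and 7.7% of all rows, and without resistant HCC827 library A 12 were called higher in HCC827 and 3 higher in HCC4006, or without B 5 and 6. NDRG1 (1344 and 1619 against 181.6 and 227.6 FPKM, 2.89) and the lipase inhibitor ANGPTL4 (46.2 and 62.9 against 8.34 and 5.64, 2.92) were higher in HCC827, and the peptide hormone ADM (23.0 and 44.0 against 526.7 and 344.2 FPKM, −3.69) higher in HCC4006. GAPDH was 15710 and 34470 against 17600 and 20790. Of 18 unfolded protein and heat shock genes DDIT3, HSP90B1 and PDIA4 were called higher in HCC827 (8.57% of all rows were), 0 of 18 were called without resistant HCC4006 library A or B, and without resistant HCC827 library A or B 8 or 9 were called higher in HCC827. Of 9 tested HOX genes HOXB7 was called (−1.17), but not without either resistant HCC4006 library (highest adjusted p = 0.416).

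**Figure D3:**
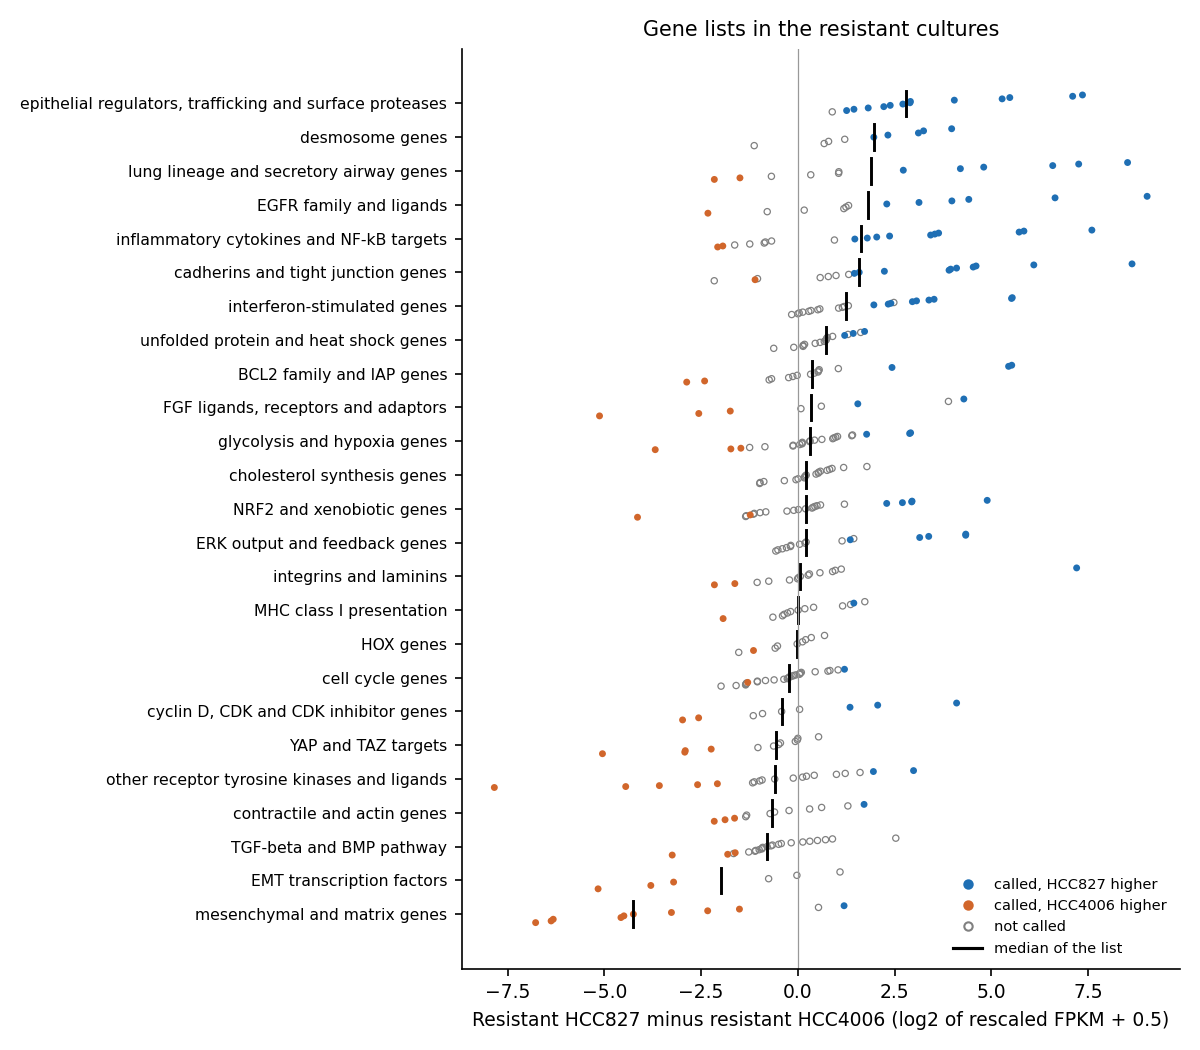
End-state difference (HCC827 minus HCC4006, log2 of rescaled FPKM + 0.5) of each tested member in the lists with at least 5 tested genes, 1 point per gene, blue or orange where called, with the list's median as a black bar. The highest median is that of epithelial regulators (2.81) and the lowest that of mesenchymal and matrix genes (−4.25), beside −0.016 over all rows tested.

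How far the resistant lines stood from each other was compared with the distance of their DMSO cultures over the 14639 rows tested in all 8 libraries. The median absolute difference was 0.64 between the resistant cultures and 0.60 between the DMSO cultures. Single pairs of libraries from the 2 lines ranged from 0.66 to 0.75 in the resistant state and from 0.57 to 0.83 in DMSO, so the distances differed by less than the spread between pairs. Of these rows 29.97% and 28.14% were at least 2-fold apart. Across rows the 2 sets of differences had a Pearson r of 0.43 (Spearman rho 0.36), given as a description, since both sets share the lines and the tables and rows are not independent.

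Of 378 rows at least 8-fold apart in the resistant cultures, 240 were already at least 2-fold apart the same way in DMSO, 108 were less than 2-fold apart there and 30 were at least 2-fold apart the opposite way. Of the 221 higher in HCC827, 127 were at least 2-fold apart the same way in DMSO, and of the 157 higher in HCC4006, 113 were. EREG (8.81 in DMSO, limma adjusted p = 0.00998), AXL, CDK4, MYC (4.33, adjusted p = 0.0112) and VIM (−3.47, adjusted p = 0.0327) were among these rows. In DMSO, 486 of 15423 rows (3.15%) were called between the lines, 1.41% of rows with HCC827 higher, and without HCC827 DMSO library A or B 14 or 8 were, and without HCC4006 DMSO library B 1946. Mesenchymal and matrix genes were called there for 5 of 11 tested, all higher in HCC4006, at a background of 1.74% in that direction, with a list median of −3.47. For the junction genes the median in DMSO was −0.15 and 0 of 15 were called either way (adjusted p below 0.05 in limma).

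Whether a gene's change on the way to resistance differed between the lines was tested in a fit over all 8 libraries, as HCC827 change less HCC4006 change, in which a table's own scale cancels. Of 14639 rows 223 (1.52%) were called, 151 positive (1.03%) and 72 negative (0.492%). Called positive were 7 of 15 junction genes, 3 of 9 desmosome genes and 7 of 14 epithelial regulators. For CDH1 the difference was 8.63 (adjusted p = 0.00028), for RAB25 8.98 and for AP1M2 8.80, and these stayed called without each of the 8 libraries in turn. For ZEB1 it was −3.47 (adjusted p = 0.0401), and without 7 of the 8 libraries in turn, all but HCC4006 DMSO library B, it was not called (highest adjusted p = 0.221). For ERBB3 it was 4.14 (adjusted p = 0.0416), lost without the same 7 (highest adjusted p = 0.195). For VIM it was 0.21 (adjusted p = 0.883), with values that were higher in both resistant cultures than in their DMSO controls: 154.7 and 341.3 FPKM to 800.4 and 1071 in HCC827, and 2036 and 3292 to 9074 and 9193 in HCC4006. For FGF2 and FGFR1 it was 0.58 and −1.86 (adjusted p = 0.773 and 0.248).

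Library A of the HCC4006 DMSO group stood apart and bears on this test. In it, 16 of 18 unfolded protein and heat shock genes were higher than in library B, by a median of 2.84, with DDIT3 at 4773 against 80.1 FPKM, and all 28 cell cycle genes were lower. Without that library 106 rows were called, without HCC4006 DMSO library B 1272, and without each other library in turn between 15 (HCC4006 resistant library B) and 85 (HCC827 resistant library A). The DMSO HCC827 libraries differed too. There, library A was above B for 22 of 22 interferon-stimulated genes, by a median of 1.60. The same held for 16 of 17 cytokines and NF-kB targets, with a median of 1.73. The part of these gaps in the single genes was not tested.

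Among the genes called in that test, some had opposite orders of the lines in DMSO and in the resistant cultures. WFDC2 had 31.4 and 14.1 FPKM in DMSO HCC827 against 677.0 and 400.9 in DMSO HCC4006 (−4.58, limma adjusted p = 0.0181), and the order was turned in the resistant cultures (7.26, interaction 11.84, adjusted p = 0.00028). ABCG2 went from 113.6 and 209.3 against 15.8 and 26.1 FPKM in DMSO (2.91, adjusted p = 0.0443) to −4.14 in the resistant cultures (interaction −7.05, adjusted p = 0.00401). IL7R, a cytokine receptor, went from 36.3 and 23.6 against 0.898 and 5.20 FPKM in DMSO, where it was not called (3.41, adjusted p = 0.0739), to 13.2 and 8.61 against 116.7 and 88.3 (interaction −6.56, adjusted p = 0.0192). The interaction of WFDC2 and ABCG2 stayed called without each library in turn, and that of IL7R was lost without any 1 of 6 (highest adjusted p = 0.109), the exceptions being the HCC4006 DMSO libraries.

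**Figure D4:**
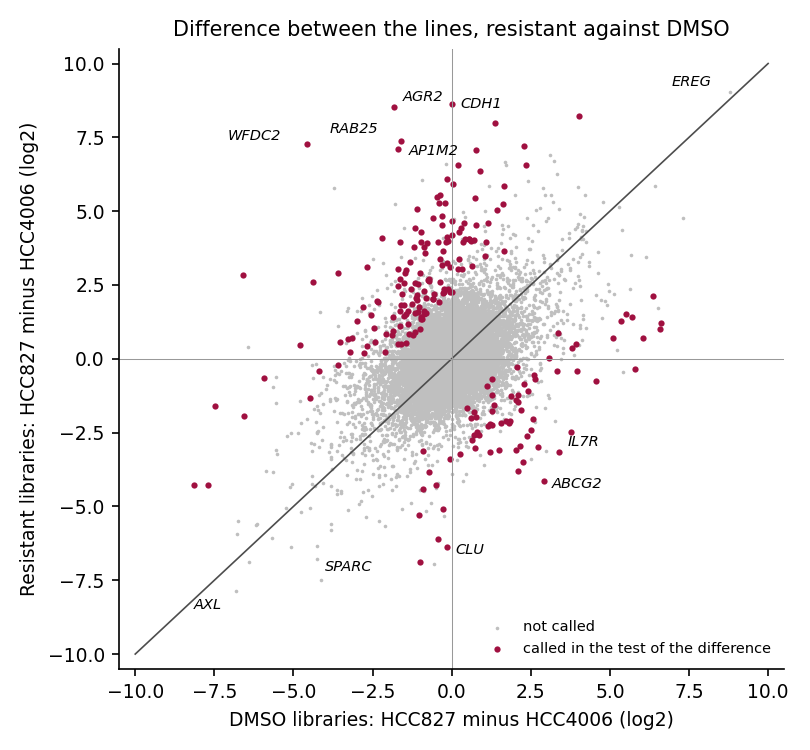
Difference between the lines in the resistant libraries (y axis) against the difference in the DMSO libraries (x axis), both HCC827 minus HCC4006 in log2, 1 point per row over 14639 rows, with the line of equality and rows called in the test of the difference of changes in red. CDH1 (0.02 in DMSO, 8.64 resistant) lies far above the line of equality, while EREG and AXL lie near it.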

How the data were processed

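Polyadenylated RNA was sequenced in 8 libraries, and 4 of them enter the main comparison. The values are FPKM, made and deposited by the authors in 1 table per line. Tools listed in the submitters' processing notes are Cufflinks 1.3.0, TopHat 1.4.1 and Cuffdiff, with hg19 as the build. Deposited starts count from 0 and are printed here from 1. Both tables list 48405 rows, matched by name and locus, and 0 per-sample columns lay outside the groups. Column letters A and B are not tied to the labels' replicate numbers.

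Columns were divided by their median ratio over rows above 0 in the libraries compared (factors near 1). Tests used limma 3.58.1 (lmFit, eBayes with trend) in R 4.3.3 on log2(rescaled FPKM + 0.5), for rows with a mean of at least 0.5, with Benjamini-Hochberg adjustment over all rows of a fit. Tables were prepared with Python 3.11.15 and pandas 2.3.3. The script was tested on simulated data. Members and lists were chosen with earlier results of these data known.

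Genes were named by a rule: the 12 largest called differences in each direction among rows with 1 name and a locus of their own and a mean of at least 1 FPKM in the lower group, 22 genes always, up to 4 called members per list and direction, and the 6 largest called interactions in each direction. Alternatives covered the pseudocount, filter, scaling, rows at 0, joined rows, trend, the letter block and each library left out.

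Some genes that the naming rule or the lists hold are not reported here.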

Additional observations from a re-analysis of the deposited data

Results flagged for a closer look

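The values below are the change from DMSO to resistance in HCC827 minus that in HCC4006, in log2, for the named genes whose difference of changes passed limma's test over all 8 libraries (adjusted p below 0.05). Of these 28 genes, 8 stayed called without each library in turn: WFDC2 (11.84), RAB25 (8.98), AP1M2 (8.80), CDH1 (8.63), PTAFR (6.36), CDH3 (6.26), ST14 (5.96) and ABCG2 (−7.05).

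The epithelial genes with other positive values were CRB3 (4.85), DSP (4.11), KRT19 (3.94), EPCAM (3.44), JUP (3.40), the protease PRSS8 (5.50), the sodium channel subunit SCNN1A (6.31) and the integrin ITGB6 (4.92). CRB3 and DSP were lost only without HCC4006 resistant library B (adjusted p = 0.0501), and ITGB6 without that library or HCC827 DMSO library B. JUP was lost without 4 of the 8 libraries, KRT19, EPCAM and PRSS8 without 5 and SCNN1A without 6 (highest adjusted p = 0.160). AGR2 (10.34), ERBB3 (4.14), BIK (4.71) and the retinol transporter STRA6 (6.50) were each lost without 4 or more of the 8 libraries. STRA6 stood at 610.5 and 135.3 FPKM in DMSO HCC4006, 4.06 and 8.24 in resistant HCC4006, 37.3 and 14.5 in DMSO HCC827 and 71.2 and 29.7 in resistant HCC827.

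A negative value was found for IL7R (−6.56), the secreted chaperone CLU (−6.25), the methyltransferase NNMT (−5.34), CPT1A (−5.12), which feeds fatty acids to mitochondria, the protease inhibitor SERPINE2 (−3.94), NAV3 (−3.91), ZEB1 (−3.47) and the transcription factor KLF4 (−2.51). Each of these was lost without 4 or more of the 8 libraries. CLU overlapped between the lines in DMSO (26.5 and 65.2 against 29.8 and 71.6 FPKM) and was read at 6.83 and 17.0 against 894.5 and 1050 in the resistant cultures. NNMT went from 179.9 and 170.1 to 27.2 and 69.0 FPKM in HCC827 and from 10.3 and 4.57 to 82.2 and 70.2 in HCC4006.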

How the results depend on the processing

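In the main fit 2663 of 16369 rows were called between the resistant cultures (1403 higher in HCC827, 1260 in HCC4006). A refit of the 7540 rows with 1 name and a locus of their own called 1592 (868 and 724), of which 1293 were among the 2663. A refit with rows at 0 kept called 5008 of 20161 rows (2357 and 2651), of which 2398 were among the 2663. Leaving out 1 library gave 880 to 8140 (527 to 4092 and 352 to 4048). In DMSO, moderation without a trend called 323 rows (170 higher in HCC4006), and leaving out 1 library 8 to 1946 (1 to 987 and 7 to 959). The difference of changes ranged from 15 to 1272 rows without 1 library (12 to 723 positive, 3 to 549 negative). With a pseudocount of 5, the median distance of the resistant cultures was 0.535 and the rows at least 2-fold apart were 23.85% resistant and 21.87% in DMSO. Without 1 library the median distance was 0.637 to 0.731 resistant and 0.550 to 0.766 in DMSO, and the share 29.95% to 36.68% and 25.72% to 38.51%. EGFR turned to −0.80 without resistant HCC827 library A and was 1.15 without library B.

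With the column letter as a replicate block, 4117 rows were called (2017 higher in HCC4006), and with a block within each line 206 in the difference of changes. The labels do not say that a letter pairs libraries, and 2 letters are too few to show it: the A minus B differences had a correlation across rows of 0.0025 between the resistant groups, 0.33 between the DMSO groups, 0.22 within HCC827 and −0.088 within HCC4006. Leaving out rows with a repeated name and locus, chosen after seeing the data, called 2640, 481 and 224 rows in the 3 tests.

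Of 125 named end-state calls, 40 and 34 were lost without resistant HCC4006 library A and B, 16 of 113 in a fit over all 8 libraries, 10 with rows at 0 kept and at most 8 under each other setting. The cause was not tested. Depth is unknown, and lines, tables and 2 libraries per group limit every value.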
